A study of Equus caballus with 22 samples.

Results

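HSD11B2, CYP17A1 and AKR1C1 encode enzymes that make or inactivate steroid hormones, and their transcripts were followed in mare endometrium, the inner layer of the uterus, during early pregnancy. All non-control probes of the array whose accession is a horse RefSeq transcript of one of the 3 genes were taken, which gave 7 probes of 43603. HSD11B2 has 1 probe, CYP17A1 has 2 and AKR1C1, which the reference table also lists as AKR1C23, has 4. The choice of probes for these genes used no measured value, but the 3 genes were chosen with earlier results of these data known. Biopsies came from warmblood mares: 6 mares at day 12 of pregnancy, sampled after the embryo had been recovered, the same 6 mares as controls at the matching day without pregnancy, and likewise 5 pregnant and 5 control samples of 5 mares at day 8. Each of the 22 biopsies was labelled with Cy3 and hybridised to its own 1-colour Agilent horse array.

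Steroids act on the endometrium both through the blood and through what the tissue itself makes or removes. HSD11B2 (11-HSD2) oxidises active cortisol to inactive cortisone and so keeps glucocorticoid away from receptors in the cells that carry it. CYP17A1 is a cytochrome of steroid synthesis that hydroxylates progesterone and pregnenolone and turns them into androgen precursors, and AKR1C1 is an aldo-keto reductase whose human form reduces progesterone to a less active alcohol. Progesterone from the ovary is the hormone that keeps the uterus of the mare receptive to the embryo at these days.

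Each level is a log2 intensity from which the 75th percentile of its array was taken away, so a level of 0 is as bright as that percentile, and levels of different probes cannot be set against each other. A probe counts as measured on an array where the scanner software calls it well above background. The 75th percentile lay between 577 and 1863 intensity units, and 74.2% to 92.9% of the spots were well above background. All day 12 arrays were on 4 slides and 3 scan days and all day 8 arrays on 3 other slides and 2 other scan days, with different versions of the scanner software, so day, slide and scan day cannot be told apart. Both arrays of a mare shared a slide. In whole tissue, fewer cells of a type and less RNA per cell cannot be told apart either. Of the other cell markers, 1 of 6 epithelial, 2 of 5 stromal, 1 of 5 smooth muscle, 1 of 3 endothelial and 4 of 6 leukocyte genes were measured, and the epithelial one, ESRP1, lay between 2.47 and 3.16 on all arrays.

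HSD11B2 was measured on 22 of 22 arrays, and its level followed the day of the sample. It averaged 4.20% of the 75th percentile in day 12 pregnant samples, 7.17% in day 12 control samples, 16.5% in day 8 pregnant samples and 20.1% in day 8 control samples. On the log2 scale the lowest, median and highest of the 6 day 12 pregnant samples were -4.65, -4.60 and -4.46, and those of the 6 day 12 control samples were -4.23, -3.92 and -3.27. The 5 day 8 pregnant samples had -2.93, -3.10, -2.95, -2.20 and -1.80, and the 5 day 8 control samples of the same mares had -2.45, -2.004, -2.50, -1.75 and -2.88. Every day 12 array was thus below every day 8 array, as were 2.86% of all probes, and at day 12 every pregnant sample was below every control sample, as were 0.089% of all probes. The day 12 pregnant samples also lay closest together, with an SD of 0.08 against 0.44 in day 12 controls (n = 6 each). Their intensities of 25.3 to 76.0 units stood well clear of the negative-control spots, whose 95th percentile was 1.25 to 2.39 units, and on no array was HSD11B2 under 14.3 times that percentile. In the order of the levels, the 2 day 8 groups did not differ beyond their spread.

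**Figure D1:**
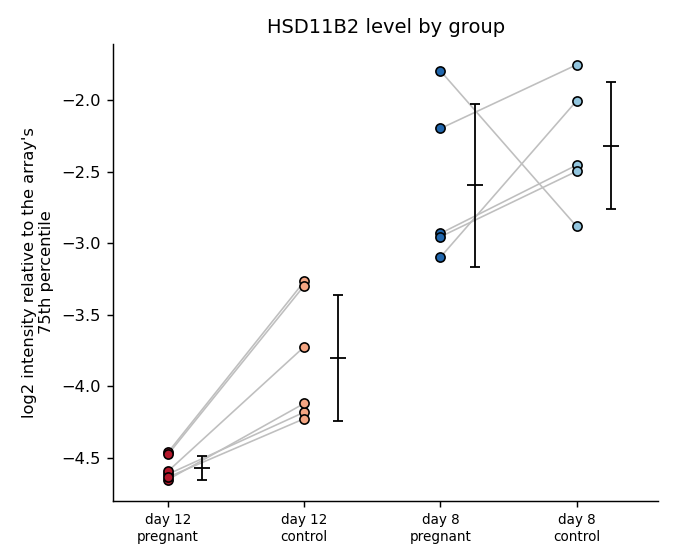
HSD11B2 level on each array (points; y axis, log2 intensity relative to the array's 75th percentile) by group, with lines joining the samples of a mare and bars showing mean ± SD. The 6 day 12 pregnant samples sit between -4.65 and -4.46, under all 6 control samples of that day, and all day 12 samples lie under the lowest day 8 sample at -3.10.

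Pregnant samples had less HSD11B2 than control samples in each of the 6 mares at day 12. The changes were -0.43, -1.19, -0.87, -0.53, -0.41 and -1.18 log2 in mares 1 to 6. Their mean was -0.77 ± 0.23 (SE, 95% interval -1.26 to -0.28), a 1.71-fold lower level, and limma gave an unadjusted p of 0.0055 and an adjusted p of 0.193 over 38461 probes. This missed the threshold of an adjusted p of 0.05, which 0.265% of probes passed, and 3.71% of all probes were lower in every mare. An exact sign-flip permutation test over the 6 mares gave p = 0.0312, the smallest it can give, and 0.0938 after Benjamini-Hochberg adjustment over 3 genes and 2 days. Within the 3 scan days of day 12 the mean changes were -0.65, -0.80 and -0.86 (2 mares each). With a normexp background correction the mean was 0.13, against a median of 0.34 over all probes. In that setting the corrected first percentile of the day 12 pregnant array of mare 1 was 2691 units, against 52.5 to 59.0 units on the other arrays, and without that mare's day 12 pair the mean was -0.44 (adjusted p = 0.545).

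At day 8 the HSD11B2 changes were -0.48, -1.09, -0.46 and -0.45 in mares 1, 2, 4 and 5, and 1.09 in mare 6. The 2 groups overlapped, and the mean was -0.28 ± 0.25 (SE, 95% interval -0.82 to 0.26, adjusted p = 0.910 with limma). No probe of the array passed at day 8 (0%), while 5.83% had an unadjusted p under 0.05. The change of mare 6 went against the other 4 mares, and with 1 pair left out the mean ran from -0.62 without mare 6 to -0.073 without mare 2. The difference between the pregnancy effects of the 2 days was -0.49 ± 0.33 (adjusted p = 0.616, 0.0104% of probes past the threshold), so the effect at day 12 was not shown to differ from that at day 8. Without the day 8 pair of mare 2 that difference was -0.70, and without the day 8 pair of mare 6 it was -0.15.

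**Figure D2:**
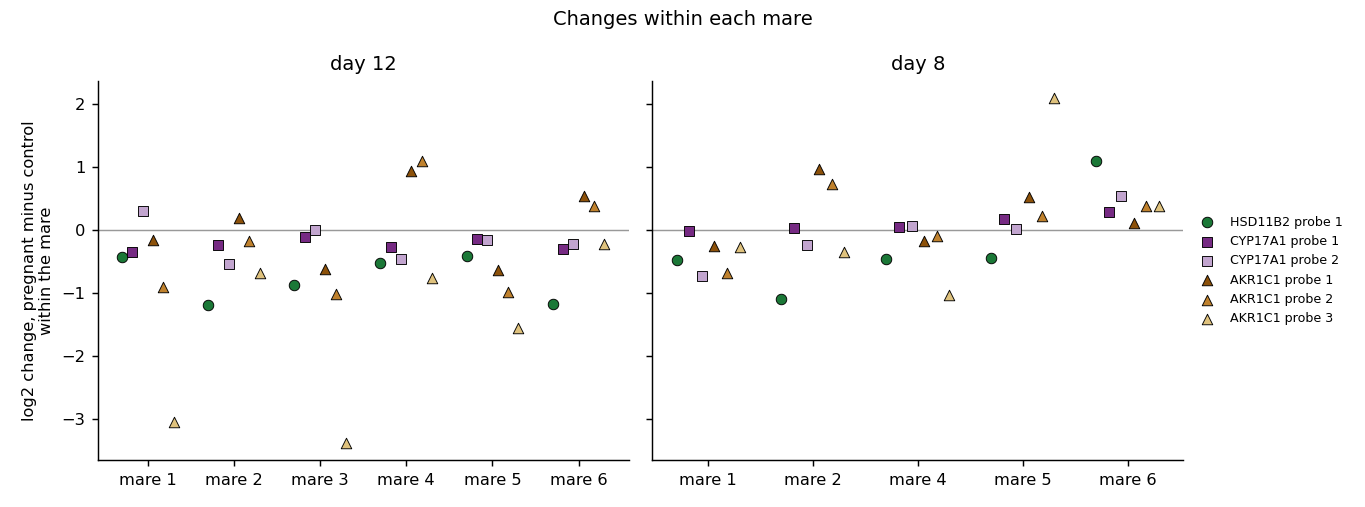
Change of each tested probe within each mare (y axis, log2 level of the pregnant minus the control sample) at day 12 and day 8. HSD11B2 and probe 1 of CYP17A1 lie under 0 in all 6 mares at day 12, whereas at day 8 HSD11B2 is under 0 in 4 of 5 mares, with mare 6 at 1.09.

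The HSD11B2 difference between days was larger and passed the threshold in both arms. Day 12 pregnant samples were 3.94-fold lower than day 8 pregnant samples (-1.98 ± 0.23 log2, 95% interval -2.47 to -1.48, limma adjusted p = 0.00052). Of all probes, 13.1% fell past the threshold in that comparison and 11.1% rose. Day 12 control samples were 2.80-fold lower than day 8 control samples (-1.48 ± 0.26, 95% interval -2.05 to -0.92, adjusted p = 0.0109), a comparison in which 4.62% of all probes fell and 2.47% rose. With 1 array left out, the fall passed in 11 of 11 fits among pregnant samples (-2.10 to -1.78) and in 11 of 11 among control samples (-1.63 to -1.34). With scan day as a random block the fall kept its call among pregnant samples (-1.94, adjusted p = 0.0051) and lost it among control samples (-1.49, adjusted p = 0.107). Among pregnant samples the endothelial marker, the smooth muscle marker and CD14, 1 of 4 leukocyte markers, rose past the threshold on day 12. The other 3 leukocyte markers, with 1 probe a gene, were lower without passing it. The stromal marker LUM fell past the threshold on 1 of 6 probes, as given below. The part of these cells in the fall of HSD11B2 was not tested.

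CYP17A1 was measured by both probes on all 22 arrays but was dim, at 13.8 to 47.2 intensity units on probe 1 and 8.27 to 30.8 on probe 2. On probe 1, printed as 5 spots that were averaged, the lowest, median and highest of the day 12 pregnant samples were -5.75, -5.48 and -5.30, and those of the day 12 control samples -5.63, -5.24 and -5.06. The day 8 pregnant samples had -5.41, -5.44, -4.95, -5.28 and -5.05, and the day 8 control samples of the same mares had -5.38, -5.48, -4.99, -5.44 and -5.32. The 4 groups overlapped. Their means were -5.51 ± 0.15 in day 12 pregnant samples, -5.27 ± 0.20 in day 12 control samples, -5.23 ± 0.22 in day 8 pregnant samples and -5.32 ± 0.19 in day 8 control samples (SD, n = 6 at day 12 and 5 at day 8).

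Within mares, CYP17A1 probe 1 was lower in pregnancy in 6 of 6 mares at day 12. The changes were -0.35, -0.24, -0.11, -0.28, -0.15 and -0.31 in mares 1 to 6, with a mean of -0.24 ± 0.07 (SE, 95% interval -0.39 to -0.09), a 1.18-fold lower level. The limma test gave an unadjusted p of 0.0044 and an adjusted p of 0.178, and the exact sign-flip permutation test gave p = 0.0312, or 0.0938 after adjustment over the 3 genes and 2 days. The change in mare 1 rested on 1 spot: on its control array that spot read 70.8 units and the other 4 spots 23.3 to 24.0. With the median of the 5 spots, an alternative chosen after seeing the data, the change in mare 1 was -0.0060, those of mares 2 to 6 were -0.24, -0.12, -0.28, -0.11 and -0.50, and the mean was -0.21 (adjusted p = 0.310). With normexp the direction was not kept, at 0.59 with all arrays and 0.0071 without the day 12 pair of mare 1.

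At day 8 probe 1 of CYP17A1 changed by -0.02 in mare 1 and by 0.03, 0.04, 0.17 and 0.28 in mares 2, 4, 5 and 6. The mean was 0.10 ± 0.07 (SE, adjusted p = 0.889), higher in 4 of 5 mares. The pregnancy effect at day 12 minus that at day 8 was -0.34 ± 0.10 (unadjusted p = 0.0060, adjusted p = 0.308 with limma), and it stayed between -0.37 and -0.29 with 1 pair left out. Under normexp its sign turned, to 0.58 with all arrays and 0.0040 without the day 12 pair of mare 1.

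The second probe of CYP17A1 gave a similar mean change with pregnancy at day 12 and a larger spread. Its changes were 0.29, -0.54, -0.0015, -0.47, -0.17 and -0.23 in mares 1 to 6, with a mean of -0.19 ± 0.15 (SE, adjusted p = 0.658). At day 8 they were -0.74, -0.24, 0.06, 0.0057 and 0.54 in mares 1, 2, 4, 5 and 6, with a mean of -0.07 ± 0.16 (adjusted p = 0.978). Over the 11 pairs of both days the changes on the 2 probes correlated at 0.38 and had the same sign in 9. The exact sign-flip test of the difference between the probes gave p = 0.812 at day 12 and p = 0.438 at day 8.

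Between days the fall passed the threshold on probe 2 of CYP17A1 alone, among pregnant samples, and the difference between the 2 probes missed it after adjustment. On probe 2 the lowest, median and highest level were -6.58, -6.40 and -6.23 in day 12 pregnant samples, and the day 8 pregnant samples had -6.26, -5.84, -5.57, -5.83 and -5.50. These 2 groups met at 1 day 8 sample, that of mare 1. The day 12 control samples had -6.59, -6.20 and -5.75 as lowest, median and highest, and the day 8 control samples -5.52, -5.60, -5.63, -5.84 and -6.03. Probe 2 fell by 0.61 ± 0.15 in day 12 pregnant samples (SE, 1.53-fold lower, adjusted p = 0.0159, limma), where probe 1 gave -0.28 ± 0.14 (adjusted p = 0.150). Among control samples probe 2 gave -0.50 ± 0.18 (adjusted p = 0.111) and probe 1 gave 0.05 ± 0.15 (adjusted p = 0.848). The fall of probe 2 passed in 11 of 11 fits with 1 array left out, but in only 3 of 10 other settings. Among others, it lost the call with scan day as a random block (-0.59, adjusted p = 0.0740) and after quantile normalisation (-0.66, adjusted p = 0.111). The same held with the authors' value table (-0.39, adjusted p = 0.821) and under normexp without the day 12 array of mare 1 (-0.16, adjusted p = 0.733). The level of probe 1 minus that of probe 2 was higher on day 12 by 0.33 in pregnant samples (exact permutation p = 0.0216) and by 0.55 in control samples (exact permutation p = 0.00866). Both gave 0.0577 after adjustment over the 16 such tests of probe pairs in CYP17A1 and AKR1C1.

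**Figure D3:**
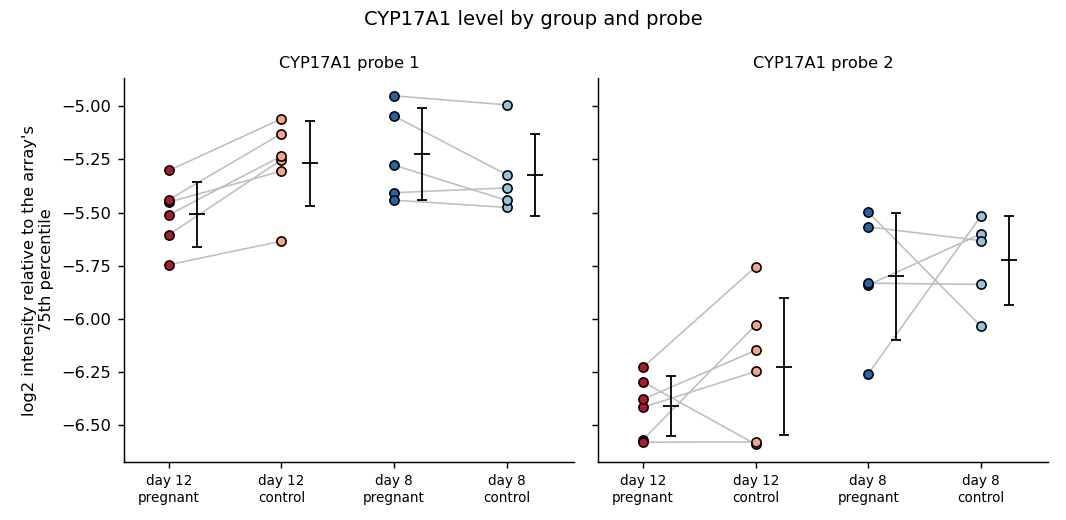
Level of both CYP17A1 probes on each array (y axis, log2 intensity relative to the array's 75th percentile) by group, with lines joining the samples of a mare and bars showing mean ± SD. On probe 1 the 4 group means lie between -5.51 and -5.23, whereas on probe 2 the day 12 means of -6.41 and -6.22 lie under the day 8 means of -5.80 and -5.72.

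AKR1C1 levels spread widely between the mares of a group. Its probes 1 and 2 were measured on 22 of 22 arrays, probe 3 on 8 and probe 4 on 0, so probe 4 was not tested, and the 3 tested probes carry the same accession. On probe 1 the lowest, median and highest level were -4.58, -3.65 and -2.40 in day 12 pregnant samples and -4.77, -3.83 and -1.76 in day 12 control samples. The day 8 pregnant samples had -3.70, -3.04, -2.81, -1.93 and -3.27, and the day 8 control samples -3.45, -4.00, -2.64, -2.45 and -3.38. The group means were -3.59 ± 0.80 in day 12 pregnant samples, -3.63 ± 1.00 in day 12 control samples, -2.95 ± 0.66 in day 8 pregnant samples and -3.18 ± 0.64 in day 8 control samples (SD), and no neighbours in the order of the levels differed beyond this spread.

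Probe 1 of AKR1C1 changed with pregnancy in no common direction. At day 12 the changes were -0.16, 0.18, -0.63, 0.93, -0.64 and 0.54 in mares 1 to 6, with a mean of 0.04 ± 0.22 (SE, 95% interval -0.44 to 0.51, adjusted p = 0.962). It turned to -0.14 without mare 4 and to -0.06 without mare 6, and was -0.05 after quantile normalisation. At day 8 they were -0.26, 0.96, -0.17, 0.52 and 0.10 in mares 1, 2, 4, 5 and 6, with a mean of 0.23 ± 0.24 (adjusted p = 0.928). Day 12 minus day 8 gave -0.64 ± 0.41 among pregnant samples (adjusted p = 0.267) and -0.44 ± 0.47 among control samples (adjusted p = 0.582), and the pregnancy effect of day 12 minus that of day 8 was -0.19 ± 0.32 (adjusted p = 0.856). With 1 array left out the day difference ran from -0.88 (without the day 12 sample of mare 5) to -0.38 (without the day 8 sample of mare 5) among pregnant samples. Among control samples it ran from -0.82 to -0.22, without the day 12 samples of mares 5 and 6. The difference of effects ran from -0.37 without the day 12 pair of mare 4 to -0.012 without the day 8 pair of mare 2.

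Probe 2 of AKR1C1 followed probe 1 within mares. Its changes at day 12 were -0.90, -0.18, -1.02, 1.09, -0.99 and 0.38 in mares 1 to 6, with a mean of -0.27 ± 0.27 (SE, adjusted p = 0.728). At day 8 they were -0.69, 0.72, -0.11, 0.22 and 0.38 in mares 1, 2, 4, 5 and 6, with a mean of 0.10 ± 0.30 (adjusted p = 0.985). Over the 11 pairs of both days the changes on probes 1 and 2 correlated at 0.93 and had the same sign in 10. The 2 probes share each array and its scaling. Between days probe 2 gave 0.12 ± 0.44 among pregnant samples and 0.49 ± 0.60 among control samples (adjusted p = 0.868 and 0.643), and without the day 12 control of mare 5 the value among control samples was -0.0062. The level of probe 1 minus that of probe 2 was lower on day 12 by 0.75 in pregnant and 0.93 in control samples, with exact permutation p = 0.0195 and 0.0152 and 0.0577 after adjustment for both.

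Probe 3 of AKR1C1 was measured on 3 of 6 day 12 pregnant, 4 of 6 day 12 control, 1 of 5 day 8 pregnant and 0 of 5 day 8 control arrays. Its lowest, median and highest level were -9.10, -7.67 and -3.62 in day 12 pregnant samples and -8.34, -5.55 and -2.07 in day 12 control samples. At day 12 both arrays measured it in mares 1, 3 and 5, with changes of -3.06, -3.38 and -1.56. In mare 2 the pregnant array, and in mares 4 and 6 both arrays, were not well above background. The fit over all 6 pairs, these readings included, gave an adjusted p of 0.182 in limma, and its mean change is not given because it rests in part on them. At day 8 neither array measured it in 4 of 5 mares.

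In the same 3 mares, numbered 1, 3 and 5, probe 1 of AKR1C1 changed by -0.16, -0.63 and -0.64 and probe 2 by -0.90, -1.02 and -0.99, so all 3 probes were lower in pregnancy there and probe 3 was lower by the most. No test was made on these 3 mares. On probe 3 the readings averaged -5.69 in day 12 control samples and -8.45 in day 8 control samples. Of these arrays 4 of 6 and 0 of 5 were well above background, so no fold is given. The limma fit of that difference did not pass the threshold and rests in part on readings not well above background. Probe 3 also passed the filter through its day 12 arrays. With all 3 probes averaged, the day 12 pregnancy effect of AKR1C1 was -0.61 (adjusted p = 0.402), with the readings of probe 3 that were not well above background included.

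**Figure D4:**
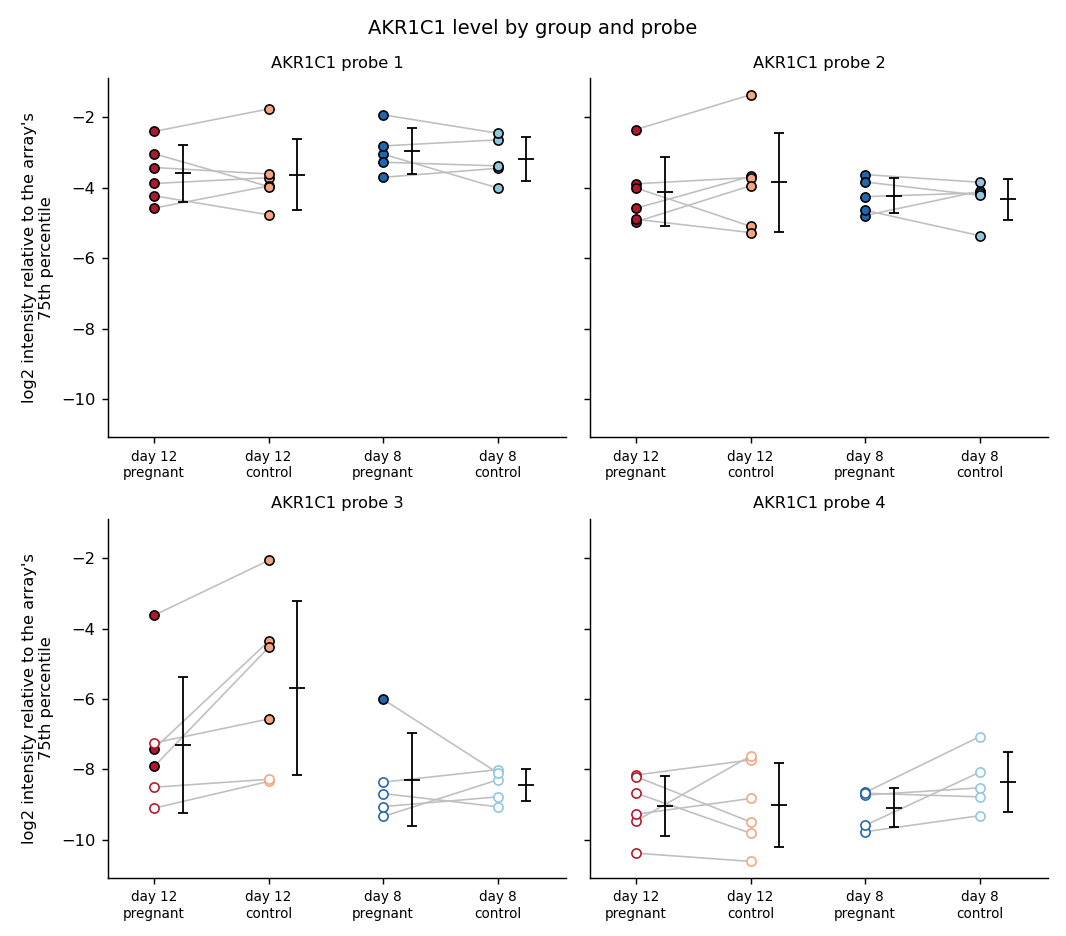
Level of the 4 AKR1C1 probes on each array (y axis, log2 intensity relative to the array's 75th percentile) by group. Filled points were well above background and open points were not, lines join the samples of a mare, and bars show mean ± SD. Probes 1 and 2 are filled on all 22 arrays, probe 3 on 8 and probe 4 on 0.

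The mare numbered 5 had the highest AKR1C1 level of its group in 4 of 4 groups on probe 1, in 4 of 4 on probe 2 and in 3 of 4 on probe 3. At day 12 its pregnant and control samples stood at -2.40 and -1.76 on probe 1, at -2.34 and -1.36 on probe 2, and at -3.62 and -2.07 on probe 3. The labels do not say whether a mare number stands for the same animal at both days. Over 31038 probes, same-numbered arrays of the 2 days deviated from their group means with correlations of -0.09 to 0.34 in pregnant and -0.15 to 0.33 in control samples, while the 2 arrays of a mare within a day gave 0.29 to 0.72 at day 12 and 0.32 to 0.82 at day 8.

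**Figure D5:**
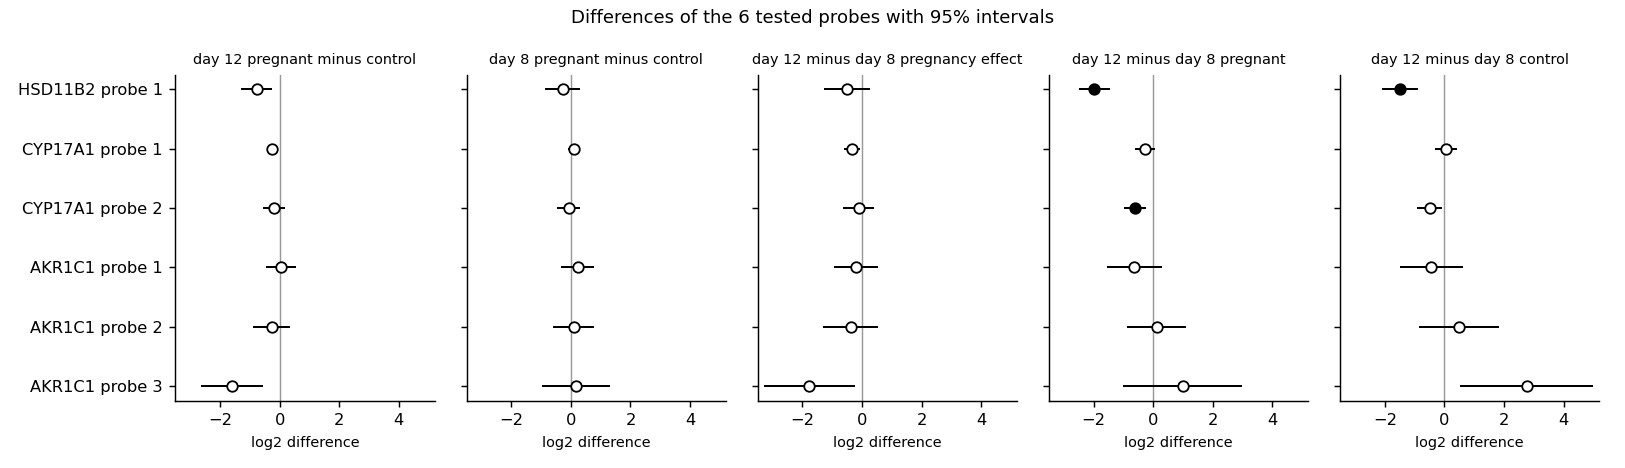
Log2 difference (x axis) of the 6 tested probes in 5 comparisons, with 95% intervals and filled points where the limma adjusted p is under 0.05. Filled points are HSD11B2 in both comparisons of day 12 with day 8 (-1.98 among pregnant, -1.48 among control samples) and probe 2 of CYP17A1 among pregnant samples (-0.61).

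The levels of HSD11B2 went along with probe 2 of CYP17A1 more than with the other probes. Over the 22 arrays HSD11B2 correlated at 0.40 with probe 1 and at 0.78 with probe 2 of CYP17A1, and at 0.24 and -0.16 with probes 1 and 2 of AKR1C1. After the group means had been taken out, the correlations with CYP17A1 were 0.15 and 0.27 and those with AKR1C1 were -0.13 and -0.10. Among 608 other named genes, the levels most like HSD11B2 were those of LOC100065075 (Pearson r = 0.91), HSPA8, a constitutive chaperone of the heat shock protein family (0.86), and PSMB2, a proteasome subunit (0.86). Their within-mare changes correlated with those of HSD11B2 at 0.58, 0.15 and 0.41 over the 11 pairs of both days. Most like CYP17A1 were LY49F, a receptor of natural killer cells (0.74), SMIM7 (0.65) and IFND1, an interferon gene (0.64). Within mares their changes correlated with those of CYP17A1 at 0.63, 0.86 and 0.60. Most like AKR1C1 were KLRB1, a lectin receptor of natural killer cells (0.76), LOC100065223 (0.75) and LOC100061613 (0.73). Within mares their changes correlated less with those of AKR1C1, at 0.37, 0.0091 and 0.47. All these correlations are over the same 22 arrays, which share day and slide, and carry no test.

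Other genes of steroid metabolism were set beside the 3 from lists of synthesis, inactivation and conjugation, receptors and regulators, cholesterol supply and glucocorticoid targets. A tested probe was there for 8 of 20 genes of synthesis, 7 of 38 of inactivation and conjugation, 4 of 19 receptors and regulators, 1 of 13 glucocorticoid targets and none of cholesterol supply, 20 genes in all with the 3 included. With pregnancy at day 12, 7 were higher and 13 lower, with a median of -0.03 against 0.00066 over the 609 tested named genes. None of the 20 passed (0 with limma), and the 2 with an unadjusted p under 0.05 were CYP17A1 and HSD11B2, where 4797 of all 38461 probes had one. The next smallest p among those lower was that of PGRMC1, a membrane progesterone receptor component, at -0.23 ± 0.11 (SE, adjusted p = 0.437). Among those higher the smallest were STAR, which carries cholesterol into mitochondria, at 0.21 ± 0.13 (adjusted p = 0.550) and NR5A2, a nuclear receptor that regulates steroid enzyme genes, at 0.28 ± 0.17 (adjusted p = 0.551). The 4 tested probes of STAR ran from -0.15 to 0.21. At day 8, 10 were higher and 10 lower, none passed, and 1 had an unadjusted p under 0.05, HSD17B4, an enzyme of peroxisomes that oxidises estradiol, at 0.21 ± 0.09 (adjusted p = 0.833). The smallest p among those lower at day 8 were those of SULT1E1, which sulfates estrogens, at -0.45 ± 0.23 (adjusted p = 0.833) and CYP19A1, the aromatase, at -0.28 ± 0.19 (adjusted p = 0.871). The 6 tested probes of CYP19A1 ran from -0.28 to 0.48 at day 8.

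Between days more of the steroid genes differed, and 15 of 20 were lower at day 12 in each arm, not all of them the same genes. Of the 609 named genes, 351 were lower among pregnant and 372 among control samples. With 1 probe a gene, that with the highest mean signal, 6 of the 20 steroid genes fell and 1 rose past the threshold among pregnant samples. The second probe of PGRMC1 (-1.02) and that of CYP17A1 (-0.61) also fell past it there. The median of the 20 was -0.63 against -0.15 over the named genes, of which 122 fell and 50 rose among 609. HSD3B2, which makes progesterone from pregnenolone, fell by 1.52 ± 0.31 (SE, adjusted p = 0.0063, limma), and HSD17B1, which makes estradiol, by 0.71 ± 0.18 (adjusted p = 0.0185). ESR1, the estrogen receptor alpha, fell by 0.94 ± 0.19 (adjusted p = 0.0063, 1 of 6 probes past). NR5A2 rose by 0.87 ± 0.24 (adjusted p = 0.0244). Among control samples, again with 1 probe a gene, HSD11B2 was the 1 gene of the 20 that fell past the threshold. NR5A2, at 0.94 ± 0.26 (limma adjusted p = 0.0498, 1 of 2 probes past), was the 1 that rose. The median was -0.44 against -0.13 over the named genes, of which 45 fell and 9 rose. The second probe of PGRMC1 also fell past the threshold among control samples (-0.87). With scan day as a random block the calls of HSD17B1 and NR5A2 were lost (adjusted p = 0.0664 and 0.0942 among pregnant samples, and 0.220 for NR5A2 among controls). Among pregnant samples ESR1 and HSD3B2 each lost the call in 3 of 10 other settings. For ESR1 these included quantile normalisation (limma adjusted p = 0.0576) and normexp (0.0769). For HSD3B2 they included normexp with all arrays (0.971) and without the day 12 array of mare 1 (0.0878). With 1 array left out, NR5A2 passed in 7 of 11 fits among pregnant samples (lost without the day 12 samples of mares 1 and 3 and the day 8 samples of mares 4 and 6) and in 2 of 11 among control samples (kept only without the day 12 sample of mare 6 or the day 8 sample of mare 1). HSD17B1 passed in 10 of 11 and was lost without the day 8 sample of mare 6 (adjusted p = 0.0528). The 2 day comparisons use different arrays, but those of a day come from the same mares, slides and scan days, so the 2 are not independent.

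Markers of other cells also moved between the days. Among pregnant samples the 1 measured endothelial marker rose (0.92), as did the 1 smooth muscle marker (0.84) and 1 of 4 leukocyte markers, CD14 (1.01). The other 3 leukocyte markers, with 1 probe a gene, were lower without passing the threshold (CD68 -0.23, ITGAX -0.61 and LAPTM5 -0.17). The 7 tested probes of ITGAX ran from -0.61 to 0.83 there, without a common direction. Of the 2 stromal markers, 1 fell past the threshold, LUM at -0.63 (adjusted p = 0.0418 in limma, 1 of 6 probes past). The 6 probes of LUM ran from -0.63 to -0.22. The epithelial marker stood at -0.14 (adjusted p = 0.546 in limma). The summed level of the stromal markers ranged from 3.66 to 4.46 in day 12 pregnant samples and from 4.40 to 4.80 in day 8 pregnant samples. The endothelial marker ranged from 0.51 to 1.51 in day 12 pregnant samples and from -0.05 to 0.21 in day 8 pregnant samples, without overlap. Of all probes, 5.37% were higher in day 12 than in day 8 pregnant samples without overlap. The smooth muscle marker ranged from -1.43 to -0.35 in day 12 and from -2.26 to -0.99 in day 8 pregnant samples, and the leukocyte sum from 3.24 to 3.62 in day 12 and from 3.19 to 3.61 in day 8 pregnant samples. PAG, the 1 of 5 trophoblast markers measured, stood at -0.02 ± 0.18 with pregnancy at day 12 and at -0.21 ± 0.20 at day 8 (SE). Its 5 tested probes ran from -0.02 to 0.40 at day 12 and from -0.49 to -0.20 at day 8. Between days they ran from 0.14 to 0.88 among pregnant samples, with 1 of the 5 past the threshold. None of these markers passed the threshold in limma among control samples or with pregnancy at either day. At day 12 the unadjusted p was 0.0025 for the smooth muscle marker (0.90), 0.0077 for the leukocyte marker CD14 (0.51) and 0.0222 for the endothelial marker (0.44), each higher in pregnant samples. Among control samples it was 0.00998 for the leukocyte marker ITGAX (-0.83), 0.0176 for the stromal marker LUM (-0.67) and 0.0176 for the endothelial marker (0.59). The 7 tested probes of ITGAX ran from -0.87 to 0.64 among control samples. The part of these cells in the values of the 3 genes was not tested.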

How the data were processed

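Per the labels' protocols, total RNA of endometrial biopsies was isolated with Trizol and copied to Cy3-labelled cRNA. The authors deposited 1 scanner table an array, with linear spot intensities from Agilent Feature Extraction. The submitters' processing notes name version 10.5.1.1, and the file headers give that version for day 12 and version 10.7.3.1 for day 8. The authors' deposited value table was read as log2, since it rose with the log2 scanner intensity (r = 0.986 to 0.997); how it was centred and normalised is not given in the sources used here, its column medians ran from 7.47 to 8.83, and it served as an alternative.

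Each array's log2 processed intensity was taken minus its 75th percentile over non-control spots. Non-uniform outlier spots (3 to 152 an array) were left out, no spot was saturated, and spots of a probe were averaged. Of 43603 probes, 38461 were well above background on at least 5 of 22 arrays and were tested, with 6 of the 7 probes of the 3 genes among them. Symbols come from RefSeq accessions of the horse assembly TB-T2T without version (1 symbol for 1394 probes and 675 genes, of which 609 were tested, several for 1 probe and none for 42208), with 1 probe a gene, that with the highest mean signal, where genes are listed. No sequences of the probes are printed.

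Tests were two-sided with limma 3.58.1 in R 4.3.3 (lmFit, eBayes), adjusted by Benjamini-Hochberg over all probes, with 0.05 as the threshold. Pregnancy effects come from 1 fit of the 22 arrays with mare within day as a block, as the labels pair the samples. The pairing was checked: the deviations of same-mare arrays correlated at 0.289 to 0.725 (day 12) and 0.321 to 0.817 (day 8), and all 11 pregnant arrays matched their own mare's control best. Days were compared in the 11 control or the 11 pregnant arrays alone, without covariates. Single probes were also tested with exact permutation tests over mares or arrays. The fits were tested on simulated data. The number of arrays limits the precision. Normexp was run on the median signal and the background median of each spot, because the scanner output used here holds no mean signal.

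The named genes are the 3 genes with every probe, list genes past the threshold or, failing that, the 2 with the smallest p each way, and the 3 genes most like each; the values of 2 list genes are not reported here. The genes and lists were chosen with earlier results of these data known.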

Additional observations from a re-analysis of the deposited data

Results flagged for a closer look

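Of 36 groups of 5 or 6 samples tested for a sample far from the others, 2 had one, and chance gives about 1 in 20. On probe 2 of AKR1C1 the day 8 control sample of mare 2, at -5.36, lay below the rest of its group, whose highest was -3.84. On probe 3 of AKR1C1 the day 12 pregnant sample of mare 5, at -3.62, lay above the rest of its group, whose lowest was -9.10, with 3 of the 6 arrays well above background. The same mare was highest on the other measured AKR1C1 probes at day 12.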

How the results depend on the processing

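Without any 1 array or pair, the falls of HSD11B2 between days kept their calls. Their call among control samples was lost with a replicate block on the mare number (-1.50, adjusted p = 0.105), with a random block on scan day (-1.49) and with the authors' value table (-1.17). The replicate block on the mare number changed no other call of the 3 genes' leading probes, but the labels and the correlations given above do not show that the numbers pair animals across days. It left 31 of all probes past the threshold among control and 5094 among pregnant samples, and it lost probe 2 of CYP17A1 (adjusted p = 0.0689). Without the replicate block on mare, 41 probes passed at day 12, and no call of the 3 genes changed. The AKR1C1 effect at day 12 ranged from -0.14 to 0.17 with 1 pair left out, and probe 2 of AKR1C1 from -0.0062 to 0.78 between control samples with 1 array left out.

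Quantile normalisation turned AKR1C1 at day 12 to -0.049, and the authors' table CYP17A1 between control samples to -0.010. The mean over all tested probes turned AKR1C1 to -0.61 at day 12, 0.93 between control samples and 0.16 between pregnant samples, turned CYP17A1 between control samples to -0.22 and brought it past the threshold between pregnant samples (-0.45, adjusted p = 0.0347).

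Normexp, added after seeing that the files lack the mean signal, shifted the median of all probes by 0.34 at day 12, 0.38 in the difference of effects and 0.39 between pregnant samples, where 1 array (day 12 pregnant, mare 1) took a first percentile of 2691 units. It gave HSD11B2 0.13 at day 12, 0.39 in the difference of effects and -0.71 between pregnant samples (call lost). For CYP17A1 it gave 0.59, 0.58, 0.52 between pregnant and -0.066 between control samples, for AKR1C1 0.33 in the difference of effects and 0.049 between pregnant samples. At day 12 it gave 0.31 and 0.18 for probes 2 and 3 of AKR1C1, and between pregnant samples 0.46 for probe 2 of CYP17A1 and 0.048 for HSD17B1. Without the day 12 pair of mare 1, CYP17A1 stood at 0.0071 and 0.0040, and HSD11B2 fell by 1.23 between pregnant samples with its call kept (adjusted p = 0.0039). The cause of the remaining changes was not tested.

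Counts over all probes moved by more than 1.5 times with several settings. At day 12, where 102 passed (81 higher, 21 lower), it was 9 with that day's arrays alone, 218 with probes measured on all arrays, 287 with a trended robust prior, 302 with the authors' table, 13 with normexp (13 higher, 0 lower), 48 without mare 1's pair under normexp, and 31, 33, 977, 64, 302 and 35 without the pairs of mares 1 to 6. In the difference of effects, where 4 passed, it was 0 to 11 across other settings and 1 to 33 with 1 pair left out (33, 30, 9 and 2 without the day 12 pairs of mares 3, 5, 2 and 1, and 1 or 2 without a day 8 pair). Between control samples, where 2727 passed (950 higher, 1777 lower), it was 4504 after quantile normalisation, 1620 with normexp, 772 with a random block on slide and 211 with one on scan day, and 277 with the authors' table (11 higher, 266 lower). With 1 array left out it was 650 to 3235, with 1103, 1775 and 1519 without the day 12 controls of mares 1, 3 and 4 and 1383, 662 and 650 without the day 8 controls of mares 4, 5 and 6. Between pregnant samples, where 9332 passed (4280 higher, 5052 lower), it was 388 with normexp (132 higher, 256 lower), 4085 without mare 1's array under normexp, 3433 with a random block on scan day and 839 with the authors' table. With 1 array left out it was 5868 to 10639, with 6205 and 5868 without the day 8 pregnant arrays of mares 4 and 6.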
